A study of Mus musculus with 7 samples.

Results

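The tumour suppressor p53 and a set of genes that it switches on or that mark senescence were followed in RNA-seq of mouse pancreatic spheroids. The set holds 33 genes, named from the p53 pathway and from senescence, out of 54446 genes in the deposited count table. All 33 were found by symbol through their Ensembl identifiers, and all 33 passed the filter on low counts. Spheroids are epithelial cells cultured as rounded bodies rather than as a flat layer, and these were derived from wild-type C57BL/6J mice. The 3 untreated libraries came from mice that received no treatment. The 4 post-caerulein libraries came from mice treated beforehand with caerulein, a peptide that overstimulates acinar cells and so inflames the pancreas. Every culture was kept in a medium with epidermal growth factor, cholera toxin, hydrocortisone, nicotinamide and pituitary extract, so both groups share these agents. The sources used here do not give the age of the mice, the time between caerulein and culture, or whether a library pools animals. Nothing there says that replicates are separate animals or cultures, so the p-values reflect the spread of these libraries only, and part of that spread may be technical.

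In unstressed cells p53 protein is kept low by Mdm2, a ubiquitin ligase that is itself a p53 target, so that the pair forms a feedback loop. DNA damage or oncogenic signals release p53, which then raises genes that stop the cell cycle, repair DNA, alter metabolism or promote apoptosis. Because p53 is regulated mainly at the protein level, its transcript need not follow its activity. Senescent cells leave the cycle for good through the CDK inhibitors p21 and p16 and the retinoblastoma protein.

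Total counts ranged from 34783738 to 46744497 per library, and a gene with no read could still lie at up to 3 counts, or 0.0631 to 0.0841 CPM (counts scaled to the normalised library size). The libraries stand apart in a way the group labels do not explain. The biological coefficient of variation was 8.64% between untreated 1 and 2 and 5.77% between post-caerulein 2 and 3, but 21.7% or more for every other pair. Untreated 3 and post-caerulein 4, called the smaller block here, form the block term that gives back the authors' deposited table, and the other 5 libraries are called the larger block. No label says what this block is. Results are therefore given from the fit with the group alone, from the fit with the block as a term and from the larger block alone. The summed level of 10 ductal epithelial markers was 14338 to 15572 CPM in the untreated group and 14580 to 22013 CPM in post-caerulein libraries. The sums were at most 2.14 and 12.3 CPM for 8 acinar markers and at most 0.489 and 4.66 CPM for 8 islet markers, with Amy2a5 at 0 in every library. The sums reached 22.7 and 7.99 CPM for 10 fibroblast markers, highest in untreated 3, and 3.14 and 2.19 CPM for 8 endothelial markers. The 8 leukocyte markers reached 98.9 and 36.8 CPM, nearly all of it Cd68, while Ptprc stayed at or under 0.105 CPM. The part of these markers in the results below was not tested.

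The sequences upstream of 5 genes are shown as examples: Gdf15 and Plk3 fell between the groups, and Cdkn1a, Mdm2 and Ccng1 differed between the blocks. Rb1, which also fell between the groups, had no window. Each line gives the 250 bases before the start site of the RefSeq table (GRCm38.p6), 5′ to 3′ on the strand of the gene. Capitals mark a match to the p53 half-site consensus, a motif of 10 letters searched on both strands, and everything else is in lower case.
Gdf15, chr8:70632457-70632706, minus strand: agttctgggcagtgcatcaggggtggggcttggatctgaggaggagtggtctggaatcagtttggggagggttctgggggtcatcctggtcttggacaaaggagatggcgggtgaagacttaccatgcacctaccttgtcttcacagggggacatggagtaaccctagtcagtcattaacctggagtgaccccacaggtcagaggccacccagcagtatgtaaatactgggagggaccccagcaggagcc
Plk3, chr4:117133964-117134213, minus strand: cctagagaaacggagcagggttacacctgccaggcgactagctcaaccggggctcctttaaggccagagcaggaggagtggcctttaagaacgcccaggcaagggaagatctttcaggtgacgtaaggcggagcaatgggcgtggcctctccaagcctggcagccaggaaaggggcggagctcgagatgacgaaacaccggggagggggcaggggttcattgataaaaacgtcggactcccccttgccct
Cdkn1a, upstream start, chr17:29090729-29090978, plus strand: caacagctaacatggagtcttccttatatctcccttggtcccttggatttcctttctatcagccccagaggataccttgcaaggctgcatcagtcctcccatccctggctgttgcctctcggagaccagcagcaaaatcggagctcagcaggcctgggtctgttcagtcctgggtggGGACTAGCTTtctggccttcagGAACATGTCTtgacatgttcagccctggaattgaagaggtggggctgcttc
Mdm2, chr10:117710759-117711008, minus strand: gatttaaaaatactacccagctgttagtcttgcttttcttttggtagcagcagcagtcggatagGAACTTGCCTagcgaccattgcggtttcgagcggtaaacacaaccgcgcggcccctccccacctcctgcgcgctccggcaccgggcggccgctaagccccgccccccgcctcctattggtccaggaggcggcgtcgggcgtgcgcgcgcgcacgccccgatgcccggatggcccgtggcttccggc
Ccng1, chr11:40755287-40755536, minus strand: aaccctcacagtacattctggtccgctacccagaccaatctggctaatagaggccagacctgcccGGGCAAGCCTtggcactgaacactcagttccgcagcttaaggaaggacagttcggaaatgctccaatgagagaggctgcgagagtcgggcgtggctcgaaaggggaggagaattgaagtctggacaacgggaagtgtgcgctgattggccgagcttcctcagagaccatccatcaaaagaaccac
The windows of Gdf15 and Plk3 held no match, which says only that these letters are not in these windows. In Cdkn1a the matches GGACTAGCTT (positions -73 to -64 from the start) and GAACATGTCT (-51 to -42) lie within 13 bases of each other, an arrangement held by 21 of 32851 windows in the table, or 0.0639%. The Mdm2 match GAACTTGCCT lies at -186 to -177 and the Ccng1 match GGGCAAGCCT at -185 to -176. Of the 33 genes, 24 had a window, and 10 of these (41.7%) held at least 1 half-site in any window, against 7.28% of the genes tested that have a window. The other 7 were Trp53 itself (GGACTTGCCC, -75 to -66), Bax (AGGCAAGCTT, -201 to -192), Gadd45a (GGGCTAGCCC, -40 to -31), Aen (GGGCTTGTCC, -121 to -112), Ei24 (GGGCATGCCC, -10 to -1), Polk (GAACTAGCCT, -231 to -222) and Sesn1 (AAGCTTGTTT, -173 to -164). Cdkn1a, Aen, Polk and Sesn1 each also had a window at another start, which held no match. Of the genes with a window, 9 were called higher in the smaller block, and 5 of these held a half-site. So did 0 of the 4 called lower and 5 of the 11 not called for the block. The genes shown above were picked, so their matches do not stand for those of their class. A match is a description of the letters, not evidence of binding.

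Levels can be compared between genes only per length, as CPM per kilobase of exon. On this scale the means over 7 libraries ran from 1.44 for Fas, a death receptor, to 207 for Perp, a membrane protein of desmosomes that p53 also raises in apoptosis. Ccng1, a cyclin that dampens p53, stood at 206 and Plk2, a stress-induced polo-like kinase, at 146. Igfbp3, which binds insulin-like growth factors, stood at 118, Trp53inp1, a cofactor of p53 in stress and autophagy, at 117 and the pore-forming protein gene Bax at 115. Cdkn1a, which encodes p21, followed at 101, Trp53 at 57.5 and Mdm2 at 50.7. Cdkn2a, whose locus encodes p16 and Arf, had a mean of only 6.82, and the death domain gene Pidd1, the sestrin gene Sesn1 and Fas were the lowest, at 2.59, 3.50 and 1.44. The plot of levels per length shows that neighbours in this order overlap in many libraries, among them Perp and Ccng1.

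**Figure D1:**
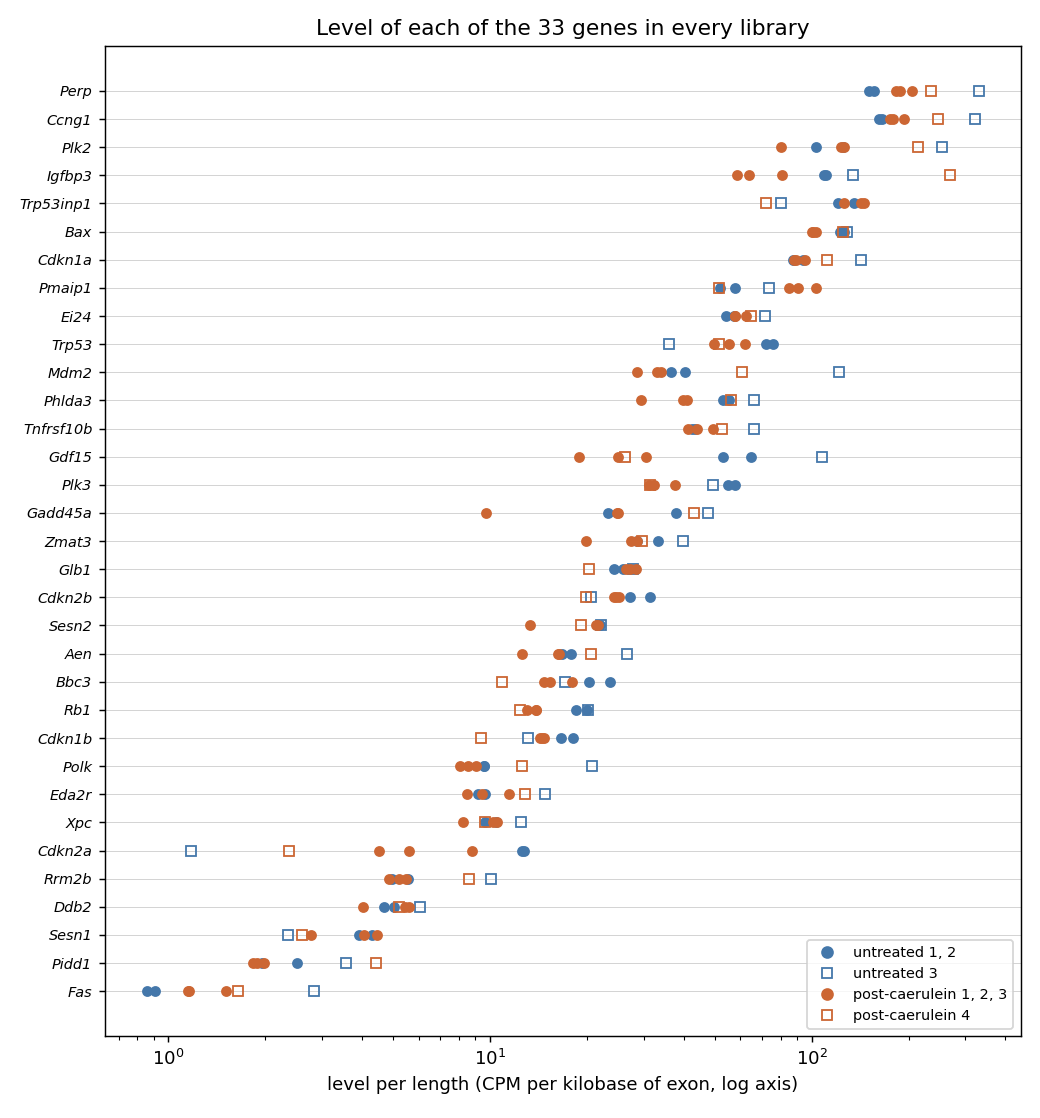
Level per length of each of the 33 genes (CPM per kilobase of exon, log axis) in every library, ordered by the mean of 7 libraries. Blue marks untreated and orange post-caerulein libraries, and open squares mark untreated 3 and post-caerulein 4. Means range from 1.44 for Fas to 207 for Perp, and the open squares lie at the upper end for 16 genes and at the lower end for 5.

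The comparison of post-caerulein with untreated libraries asks whether epithelium from a pancreas that has been through inflammation carries a different p53 and senescence programme in culture. Gdf15, a stress cytokine of the TGF-beta family, Plk3, a polo-like kinase of the damage response, and Rb1, the retinoblastoma gene, were lower in each of the 4 post-caerulein libraries than in any untreated one. No other gene of the set had groups that did not overlap. These 3 of 33 are 9.09%, and the groups did not overlap for 9.32% of all 16438 genes tested (4.65% lower after caerulein), so the share lies near the background. In bulk RNA, fewer cells of a type and less RNA per cell cannot be told apart.

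Gdf15 (chromosome 8, 70629393 to 70632456) stood at 120.0, 98.1 and 199 CPM in untreated libraries 1, 2 and 3 and at 35, 56.5, 46.2 and 48.7 CPM in post-caerulein 1 to 4. The highest post-caerulein library thus lay below the lowest untreated one. Group means were 139 ± 53 CPM (SD, n = 3) and 46.6 ± 8.89 CPM (SD, n = 4). With the block as a term Gdf15 fell by 1.48 (log2, SE 0.21), and edgeR's quasi-likelihood test gave an adjusted p of 0.0304. Within the larger block it fell by 1.22 (SE 0.20, adjusted p = 0.0101 by edgeR), and between untreated 3 and post-caerulein 4 the log2 difference was -2.02, without a test. Gdf15 showed the largest difference of the set in the fit with the block.

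Plk3 (chromosome 4, 117128655 to 117133963) stood at 137, 130.3 and 118 CPM in the untreated group and at 89.1, 76.7, 74.0 and 74.9 CPM in post-caerulein libraries. It fell by 0.72 with the block (log2, SE 0.09, adjusted p = 0.0231 by edgeR) and by 0.72 in the larger block alone (SE 0.10, adjusted p = 0.00575 by edgeR). The smaller block had a difference of similar size, since post-caerulein 4 minus untreated 3 was -0.65 (log2). The exons of Plk3 share 84 bases with Tctex1d4 on the opposite strand, a gene with 54 counts in all against 30035 for Plk3.

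Rb1 (chromosome 14, 73195502 to 73325822) encodes the protein that holds cells before DNA synthesis. It stood at 93.2, 86.0 and 94.2 CPM in the untreated group and at 60.6, 64.9, 64.7 and 57.9 CPM in post-caerulein libraries. The values were close together within each group and did not overlap between them. Rb1 fell by 0.56 with the block (log2, SE 0.08, adjusted p = 0.0310 by edgeR) and by 0.47 in the larger block (SE 0.08, adjusted p = 0.0122 by edgeR), and post-caerulein 4 minus untreated 3 was -0.70 (log2). Of its 4656 exon bases, 105 are shared with Rcbtb2 on the opposite strand.

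With the group alone, edgeR's quasi-likelihood test called 0 of the 33 genes (background 0%), with adjusted p of 0.153 for Gdf15, 0.138 for Plk3 and 0.153 for Rb1. At an unadjusted p under 0.05 there were 4 in that fit, these 3 and Bbc3, or 12.1% of the set against 9.5% of all genes. In that comparison limma-voom called 0 and DESeq2 called 3. With the block the test called 3 genes lower and 0 higher, 9.09% of the set, where 1.53% of all genes were called (0.651% higher, 0.876% lower). With each close pair summed, or without untreated 1 or untreated 2, 0 were called, both in the set and over all genes. Without post-caerulein 1, 2 and 3 in turn the count was 1, 1 and 0, against 131, 29 and 3 over all genes. Log2 changes in the fit with the block were negative for 28 of 33 genes, with a median of -0.15, against 50.6% of all genes and a median of 0.00. Between untreated 3 and post-caerulein 4 alone, 28 of 33 genes were lower in the latter, against 49.6% of all genes. The larger block alone had 21 negative and 12 positive changes, with a median of -0.18, where 49.3% of all genes were negative. The sign was opposite in the 2 blocks for 17 of the 33 genes, against 49.9% of all genes tested in the larger block.

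Within the larger block 5 genes were called, 15.2% of the set against 13.8% of all genes (7.35% higher, 6.46% lower), a share near the background. Besides Gdf15, Plk3 and Rb1 they were Igfbp3 and Pmaip1, the gene of the BH3-only apoptosis protein Noxa. Igfbp3 stood at 347 and 343 CPM in untreated libraries 1 and 2 and at 253, 200.04 and 184 CPM in post-caerulein 1, 2 and 3, where it fell by 0.68 (log2, SE 0.14, adjusted p = 0.0230 by edgeR). The smaller block went the other way, at 419 CPM in untreated library 3 and 841 CPM in post-caerulein 4, so with the block Igfbp3 changed by -0.23 (SE 0.31, adjusted p = 0.777 by edgeR).

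Pmaip1 was the only gene of the set called higher in that comparison. It stood at 153 and 137 CPM in untreated libraries 1 and 2 and at 274, 225 and 239.8 CPM in post-caerulein 1, 2 and 3, a rise of 0.79 (log2, SE 0.11, adjusted p = 0.00635 by edgeR). In the smaller block it was at 196 CPM in untreated library 3 and 137 CPM in post-caerulein 4. The fit with the block gave 0.39 (SE 0.25, adjusted p = 0.486 by edgeR), which did not pass. All 5 calls of the larger block were lost without untreated 1 or untreated 2, that of Rb1 also without post-caerulein 3 and that of Igfbp3 also without post-caerulein 2 or 3. Without untreated 1 and without untreated 2 in turn, the adjusted p by edgeR was 0.131 and 0.0789 for Gdf15, 0.0916 and 0.0725 for Plk3 and 0.148 and 0.0907 for Rb1, which had 0.0502 without post-caerulein 3. The lost calls had an adjusted p between 0.0603 and 0.180 by edgeR for Igfbp3 and of 0.0796 and 0.104 for Pmaip1.

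**Figure D2:**
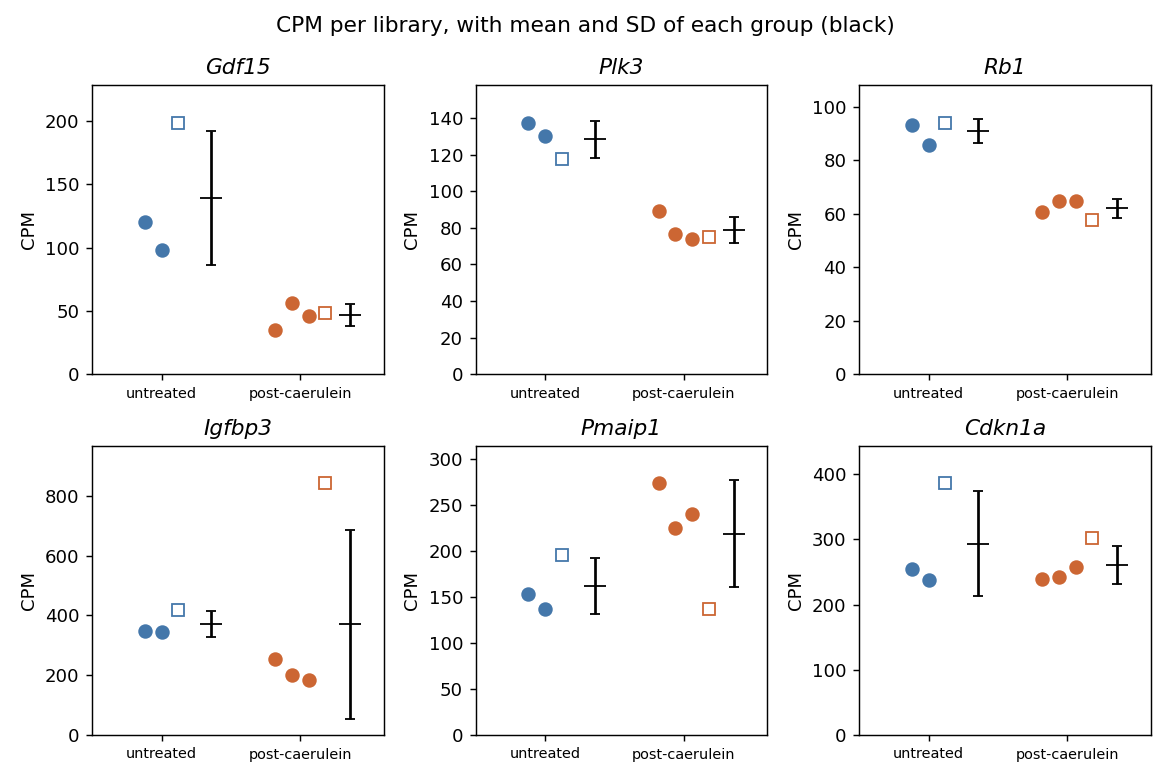
CPM of 6 genes in each library (vertical axes from 0), with untreated in blue, post-caerulein in orange, open squares for untreated 3 and post-caerulein 4, and the mean and SD of each group in black. Gdf15, Plk3 and Rb1 separate the groups, with 46.6 against 139 CPM for Gdf15, whereas for Igfbp3, Pmaip1 and Cdkn1a the groups overlap.

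Trp53, Mdm2 and the CDK inhibitor genes did not pass the test in any of the 3 group comparisons as fitted. Trp53 stood at 141, 134 and 67.3 CPM in the untreated group and at 116, 104, 93.0 and 96.5 CPM in post-caerulein libraries, so the post-caerulein values lay between the untreated ones. Mdm2 stood at 115, 127 and 381 CPM in the untreated group and at 90.2, 107, 104 and 191 CPM in post-caerulein libraries, with the smaller block highest in each group. The fit with the block gave -0.14 for Trp53 (log2, SE 0.18, adjusted p = 0.760 by edgeR) and -0.48 for Mdm2 (SE 0.16, adjusted p = 0.166 by edgeR). Within the larger block the change of Trp53 was -0.38 (SE 0.11, adjusted p = 0.0594 by edgeR). It was called lower there without the low count filter, by DESeq2 and without post-caerulein 1 (adjusted p = 0.00996, 0.0288 and 0.000601), and the range over all alternatives of that comparison was 0.000601 to 0.324.

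Among CDK inhibitors, Cdkn1a stood at 255, 238 and 386 CPM in the untreated group and at 239, 242, 258 and 303 CPM in post-caerulein libraries. Its change with the block was -0.10 (log2, SE 0.10, adjusted p = 0.668 by edgeR), and without untreated 3 or post-caerulein 4 the sign turned (0.02). Cdkn1b, the gene of p27, stood at 75.9, 82.6 and 59.8 against 65.2, 67.0, 66.1 and 42.6 CPM, with -0.33 (SE 0.08, adjusted p = 0.101 by edgeR). In each block it was thus lower after caerulein, but the groups overlapped. Cdkn1b was called lower in 1 alternative of the fit with the block and in 1 of the larger block.

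Cdkn2a stood at 15.0, 14.7 and 1.38 CPM in the untreated group and at 10.3, 6.58, 5.31 and 2.77 CPM in post-caerulein libraries. The count covers both p16 and Arf, which are read from the same locus and cannot be told apart here. With the block its change was -0.50 (log2, SE 0.41, adjusted p = 0.60 by edgeR), and in the larger block -0.98 (SE 0.27, adjusted p = 0.0567 by edgeR). It was called lower there by DESeq2, without the low count filter and without post-caerulein 1 (adjusted p = 0.00589, 0.0111 and 5.01e-05), and the range over all alternatives of that comparison was 5.01e-05 to 0.288. Without post-caerulein 1 that comparison sets one close pair against the other, and 5386 of 16367 genes were called. Cdkn2b, the neighbour of Cdkn2a and the gene of p15, stood at 43.6, 37.9 and 28.6 against 35.1, 34.1, 33.8 and 27.6 CPM, with -0.19 (SE 0.09, adjusted p = 0.346 by edgeR with the block). Cdkn2b was called lower in 1 alternative of the larger block. Glb1, which encodes the lysosomal galactosidase behind the common senescence stain, lay between 58.0 and 66.8 CPM in the untreated group and between 48.5 and 68.2 CPM in post-caerulein libraries.

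Many of the p53 targets separated the libraries by block, in both groups. In the fit with both terms, 16 of 33 genes (48.5%) differed between the smaller and the larger block, 11 higher and 5 lower in the smaller one, where 16.6% of all genes differed (7.99% higher, 8.58% lower). The median log2 block difference was 0.29 for the set and 0.01 for all genes. Untreated 3 and post-caerulein 4 both lay above the other 5 libraries for 16 of the 33 genes (17.9% of all genes) and both below for 5 (18.2% of all genes). Untreated 3 alone held the highest of 7 values for 21 of the 33 genes, and post-caerulein 1 the lowest for 14. The shares of all genes with these extremes were not computed, so these counts cannot be read as a trait of the set.

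The genes higher in the smaller block were Mdm2, Cdkn1a, Plk2, Ccng1, Igfbp3, Perp, Aen, Pidd1, Eda2r, Rrm2b and Polk, which span feedback, arrest, death and repair. Mdm2 differed by 1.29 (log2, SE 0.16, adjusted p = 0.00550 by edgeR) and Rrm2b, a ribonucleotide reductase subunit that supplies nucleotides for repair, by 0.83 (SE 0.10, adjusted p = 0.00539 by edgeR). Rrm2b stood at 46.0 CPM in untreated library 3 and 39.3 CPM in post-caerulein 4 and between 22.0 and 25.3 CPM in the other 5. Polk, a translesion polymerase gene, was likewise at 89.2 and 53.8 CPM in the smaller block and between 34.7 and 41.0 CPM elsewhere, a difference of 0.83 (SE 0.13, adjusted p = 0.0101 by edgeR).

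Ccng1 stood at 1127 and 870.0 CPM in untreated library 3 and post-caerulein 4 and between 569 and 680.2 CPM in the other 5 (0.70, SE 0.14, adjusted p = 0.0182 by edgeR). Plk2 stood at 709.8 and 597 CPM against 225 to 354 CPM (1.05, SE 0.19, adjusted p = 0.0137 by edgeR). Both blocks were therefore separate for these abundant targets, whichever group the libraries belonged to. Pidd1, which assembles a caspase platform, stood at 12 and 14.8 CPM against 6.14 to 8.41 CPM, and Aen, a nuclease gene induced in apoptosis, at 137 and 106 CPM against 64.6 to 91.7 CPM.

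Of the genes lower in the smaller block, Cdkn2a had the largest difference, -2.22 (log2, SE 0.51, adjusted p = 0.0294 by edgeR). Its 2 lowest libraries were untreated 3 and post-caerulein 4, one of each group. Trp53inp1 stood at 434 and 389 CPM in these libraries and between 652 and 788 CPM in the others (-0.81, SE 0.13, adjusted p = 0.00975 by edgeR). Cdkn1b, Cdkn2b and Bbc3, the gene of the apoptosis protein Puma, were the other 3, with differences of -0.52, -0.41 and -0.46. Trp53 itself was lowest in untreated 3, but its block difference of -0.51 (SE 0.20) did not pass (adjusted p = 0.123 by edgeR). The CDK inhibitor genes thus divided, with Cdkn1a higher and Cdkn1b, Cdkn2a and Cdkn2b lower in the smaller block. The number of calls fell to 6 without untreated 1, to 5 without untreated 2 and to 10 without post-caerulein 3. Without untreated 3 the smaller block holds 1 library, so no count is given for that fit. Over all genes the calls for the block term fell too, from 2724 of 16438. There were 917 of 16983 without untreated 1, 788 of 16834 without untreated 2 and 1503 of 16097 without post-caerulein 3. The smaller block has 1 library of each group, and what separates it from the other libraries was not tested.

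**Figure D3:**
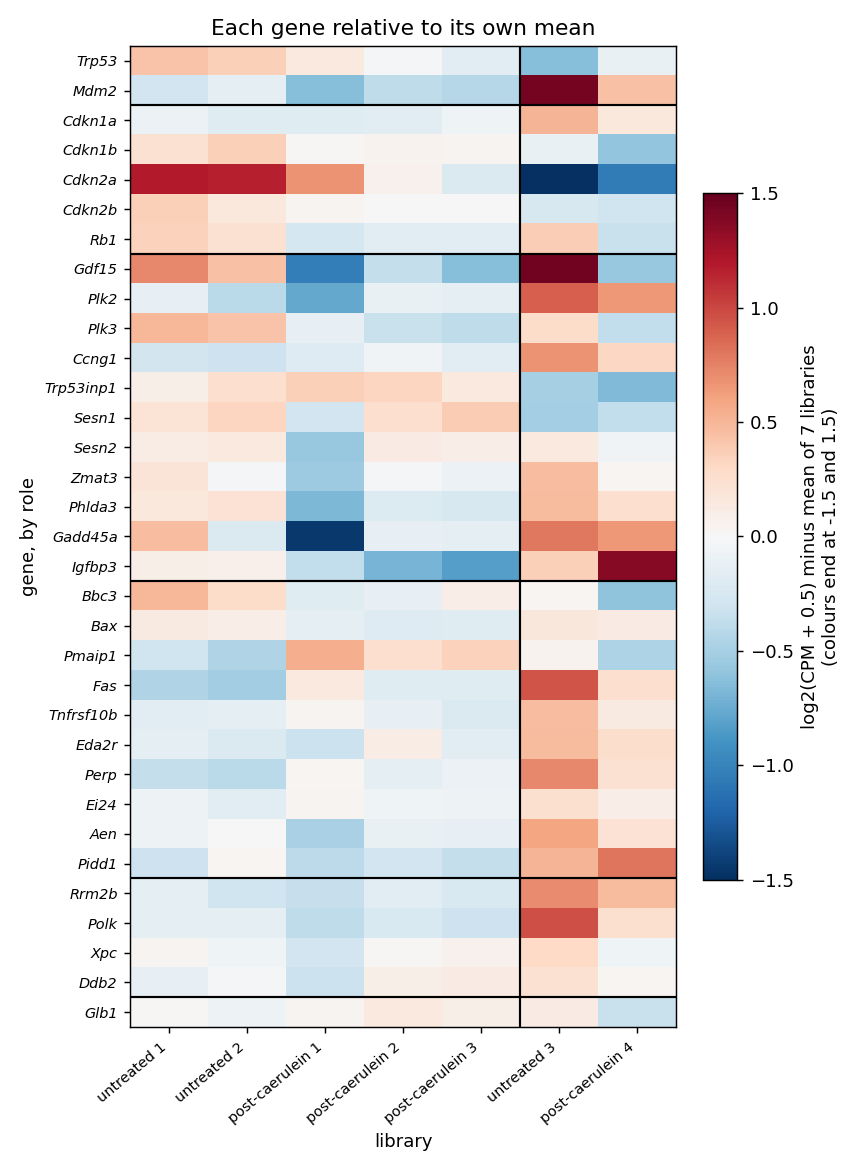
Each gene's log2(CPM + 0.5) in each library minus its mean over the 7 libraries, with genes by role (p53 and Mdm2, CDK inhibitors and Rb1, stress and growth control, apoptosis, DNA repair, Glb1) and the libraries of the smaller block to the right of the vertical line. Mdm2 (381 and 191 CPM) is high and Cdkn2a (1.38 and 2.77 CPM) low in those libraries, and Gdf15 is lower in all post-caerulein than in untreated libraries.

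**Figure D4:**
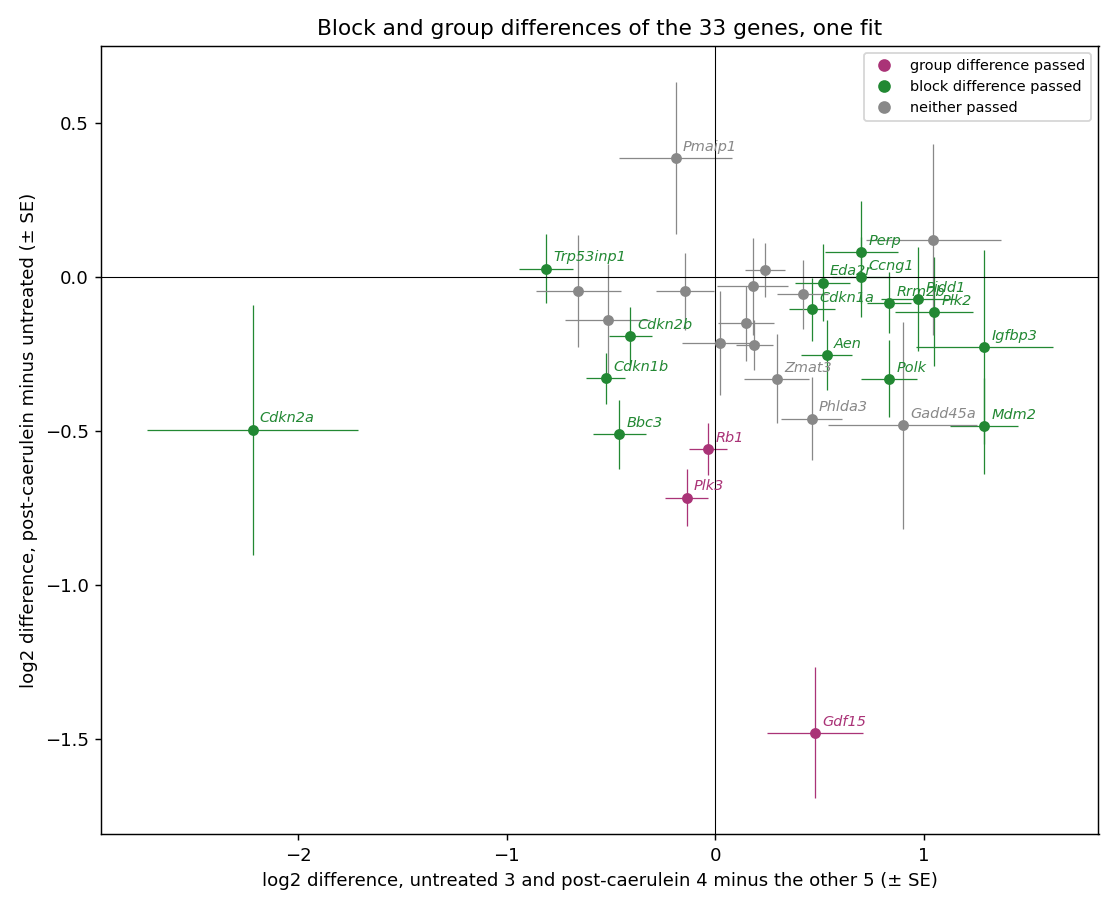
Log2 difference between the blocks (horizontal, smaller minus larger) and between the groups (vertical, post-caerulein minus untreated) from 1 fit, each point a gene and bars its SE. Gdf15, Plk3 and Rb1 passed the test for the group, 16 others passed it for the block, and no gene passed both.

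The remaining stress and growth control genes did not pass between the groups. With the block Phlda3, an inhibitor of Akt, had a log2 change of -0.46 (SE 0.13, adjusted p = 0.138 by edgeR). Zmat3, an RNA-binding target that affects splicing, was at -0.33 and the damage sensor gene Gadd45a at -0.48, with SE of 0.14 and 0.34. Gadd45a ranged from 11.9 CPM in post-caerulein 1 to 58.1 CPM in untreated library 3. Sesn1 and Sesn2, which restrain mTORC1, were at -0.05 and -0.21, and Sesn2 stood between 75.1 and 76.9 CPM in the untreated group and between 46.4 and 75.4 CPM in post-caerulein libraries, lowest in post-caerulein 1.

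Of the 10 apoptosis genes, 0 passed with the block, and 6 were negative. Bbc3 came closest, at 42.9, 36.7 and 31.0 CPM in the untreated group and 26.7, 27.9, 32.5 and 19.8 CPM in post-caerulein libraries, with a change of -0.51 (log2, SE 0.11, adjusted p = 0.0740 by edgeR). Its 3 lowest values were post-caerulein libraries, yet post-caerulein 3 overlapped the untreated range. Bax was at 109, 106 and 112 CPM against 89.4, 86.6, 87.5 and 108 CPM (-0.22, SE 0.08, adjusted p = 0.220 by edgeR), with post-caerulein 4 inside the untreated range. The death receptor genes Fas and Tnfrsf10b and the ectodysplasin receptor gene Eda2r had changes of 0.12, -0.06 and -0.02, and Ei24, of the endoplasmic reticulum, one of 0.02.

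The 4 repair genes were all negative with the block but did not pass, at -0.33 for Polk, -0.15 for Xpc, which recognises lesions, -0.08 for Rrm2b and -0.03 for its fellow recognition factor Ddb2. Ddb2 shares 621 of its 2325 exon bases with Acp2 on the opposite strand, a gene with 8222 counts against 3605. As the strand setting of the counting is not given, the Ddb2 values are uncertain.

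The authors' deposited table, from a likelihood ratio test, lists all 33 genes and calls 4 at a false discovery rate under 0.05, all lower (7.88% of the genes in the table were called, 3.39% lower). In the authors' deposited table these are Gdf15 (-1.47), Plk3 (-0.71), Rb1 (-0.55) and Bbc3 (-0.50, false discovery rate 0.0449). The authors' deposited table gives -0.09 for Cdkn1a and -0.47 for Mdm2, with false discovery rates of 0.912 and 0.0809.

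Wider lists of the pathway gave 0 or 1 call each in the fit with the block and 0 to 18 in the larger block alone. Over all genes 1.53% and 13.8% were called in these fits. Of 38 other p53 targets tested (of 39), 1 was called with the block, Dcxr, a sugar and carbonyl reductase gene, which fell by 0.71 (log2, SE 0.11, adjusted p = 0.0378 by edgeR). It stood at 43.4, 39.2 and 56.9 CPM in the untreated group and at 22.4, 28.0, 28.3 and 31.7 CPM in post-caerulein libraries, without overlap. The larger block alone gave 11 calls among the 38, 5 higher and 6 lower, which is 28.9% against 13.8% of all genes. Ephx1, an epoxide hydrolase gene, and Apaf1, of the apoptosome, fell there by 0.62 and 0.36, and Cyfip2, which binds the fragile X protein, rose by 1.64. For the block term 12 of the 38 were higher and 0 lower, 31.6% against 16.6% of all genes (7.99% higher), with a median difference of 0.44 against 0.01 for all genes.

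Regulators of p53 had 14 of 16 members tested, with 0 called with the block. In the larger block 3 of the 14 were called, 1 higher and 2 lower. That is 21.4%, where 13.8% of all genes were called (7.35% higher, 6.46% lower). The kinase gene Hipk2, which phosphorylates p53, rose in the larger block by 0.57 (log2, adjusted p = 0.0175 by edgeR), while the damage kinase genes Atm and Chek2 fell by 0.44 and 0.59. Trp63 and Trp73, the p53 relatives, were too low to test. Of 10 other cell cycle inhibitors and pocket proteins 0 were called in any of the fits, the block term included. Over all genes 1.53% were called with the block, 13.8% in the larger block and 16.6% for the block term.

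Of 24 cell cycle genes that p21 and Rb proteins repress, 0 were called with the block or for the block term, and their median change with the block was -0.04. Over all genes 1.53% and 16.6% were called in these 2 tests. The larger block alone had 4 that were lower, the mitotic genes Cdc20, Ccnb1, Ccnb2 and Cdc25c, by 0.62 to 0.89 on the log2 scale in size. These 4 of 24 are 16.7%, where 13.8% of all genes were called and 6.46% were called lower. In the larger block 20 of the 24 changes were negative, with a median of -0.36 against 0.01 for all genes. Every gene of the list was higher in post-caerulein 4 than in untreated 3, without a test. These log2 differences ran from 0.42 for Top2a to 1.53 for Mcm5. The median of -0.04 with the block thus joins mostly opposite shifts in the larger and the smaller block. Mki67, a proliferation marker, stood at 147, 175 and 105 CPM in the untreated group and at 215, 93.7, 86.6 and 244 CPM in post-caerulein libraries. Lmnb1, a lamin lost in senescent cells, stood at 64.9, 64.0 and 62.6 against 97.5, 60.8, 61.6 and 95.2 CPM. Both were highest in post-caerulein 1 and 4, and neither passed (adjusted p = 0.910 and 0.460 by edgeR with the block).

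Senescence-associated secreted factors had 33 of 40 members tested, and 1 passed with the block, the chemokine gene Ccl5, which fell by 3.68 (log2, SE 0.40, adjusted p = 0.0205 by edgeR). This 1 of 33 is 3.03%, against 1.53% of all genes. Ccl5 was low, at 2.72, 2.13 and 0.133 CPM in the untreated group and at 0.0210 to 0.253 CPM in post-caerulein libraries, and untreated 3 lay within the post-caerulein range. The median change of the list with the block was 0.75, against 0.00 for all genes, and 27 of 33 were positive. For the block term 10 of the 33 were called, 6 higher and 4 lower, which is 30.3% against 16.6% of all genes. Of the 31 tested in the larger block 14 were higher and 4 lower, 58.1% against 13.8% of all genes. Among them Areg, an EGF receptor ligand gene, fell by 1.79, and the activin gene Inhba and the adhesion gene Icam1 rose by 0.90 and 1.78. Inhba and Icam1 were also higher in post-caerulein 4 than in untreated 3 (log2 0.44 and 0.53). Of the genes called higher, Igfbp4, Igfbp5, Igfbp7, Tgfb1, Spp1, Mmp14 and Tnfrsf1a went the other way there. Their log2 differences ran from -1.83 for Igfbp4 to -0.25 for Tnfrsf1a, and the rest of those called higher were positive. Cxcl1 stood at 14.5, 10.3 and 52.0 CPM in the untreated group and at 51.7, 35.3, 20.3 and 54.2 CPM in post-caerulein libraries, a rise of 1.56 in the larger block (adjusted p = 0.0439 by edgeR) that did not pass with the block (adjusted p = 0.232 by edgeR). Il6 stayed at or under 0.124 CPM in every library. The summed level of the fibroblast markers in the larger block was 0.520 and 0.295 CPM in untreated libraries 1 and 2 and 3.45 to 7.99 CPM in post-caerulein libraries, and its part in these values was not tested.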

How the data were processed

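Poly(A) RNA of 3 untreated and 4 post-caerulein spheroid libraries was sequenced, with groups and numbers from the sample titles. The authors made the deposited counts, whole reads assigned to each gene, with featureCounts 0.6.1 on the GRCm38 (mm10) build, per the submitters' processing notes. Neither the aligner nor the strand setting is given in the sources used here, and reads of overlapping genes may be shared. A table from edgeR (version 3.2.2, per the submitters' processing notes), also deposited by the authors, gives log2 fold changes, the likelihood ratio score of each gene, p-values and false discovery rates, per the file headers.

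Of 54446 genes 54409 had a symbol. Low genes were removed by filterByExpr (at least 10 counts, total of at least 15). After TMM normalisation the robust quasi-likelihood test of edgeR 4.0.16 (R 4.3.3) was run two-sided, with Benjamini-Hochberg adjustment over all genes tested and a threshold of 0.05. SE is the log2 change divided by the square root of its F statistic. Differences between untreated 3 and post-caerulein 4 use a pseudocount of 0.5 CPM. A block of untreated 3 and post-caerulein 4 gave back the log2 fold changes of all 12983 genes in the authors' table to within 1e-06 and all 1023 of its calls, against 319 of 1023 without it. The 3 group comparisons were also run on simulated counts, whose outcome is not given here. For the group alone these counts held no block, so that run does not cover the block of these libraries. Alternatives used DESeq2 1.42.0, limma 3.58.1, other normalisations and filters, summed close pairs and each library left out. Figures were drawn with matplotlib 3.10.9.

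The genes, the wider lists and the tests were chosen with earlier results of these data known. Values in every library are given for genes called in any comparison (for the block term up to 12), for genes whose groups do not overlap and for 8 genes always given. Of the wider lists, up to 4 called genes each and Il6, Cxcl1, Mki67 and Lmnb1 are named. Sesn2, Gadd45a, Bax and Glb1 were given by value after their values were seen, as were the markers Amy2a5, Cd68 and Ptprc. Promoter sequence was taken from RefSeq tables.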

Additional observations from a re-analysis of the deposited data

Results flagged for a closer look

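In the 4 post-caerulein libraries, 6 of the 33 genes had a library whose gap to the nearest of the others took up more of the whole range than Dixon's critical value at the level of 95%. Chance flags about 1 in 20 groups, but the share of all genes flagged in this way was not computed. In all 6 the library was post-caerulein 4. It was the highest for Mdm2 (191 CPM), Igfbp3 (841 CPM), Bax (108 CPM), Pidd1 (14.8 CPM) and Rrm2b (39.3 CPM), and the lowest for Cdkn1b (42.6 CPM). Post-caerulein 4 is also the post-caerulein library of the smaller block, and untreated 3, the other library of that block, was the highest untreated library for those 5 genes and the lowest for Cdkn1b. Over all genes tested, untreated 3 and post-caerulein 4 both lay above the other 5 libraries for 17.9% and both below for 18.2%. The flags can therefore not be read as a trait of this set. The groups of 3 untreated libraries were not tested in this way.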

How the results depend on the processing

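With the group alone 0 genes of the set were called, but 3 by DESeq2 and 0 to 3 with single libraries left out, the 3 being without untreated 3. With the block the count of 3 became 5 by DESeq2, 0 with close pairs summed and 0 to 5 with single libraries left out. In the larger block the count of 5 became 10 without the low count filter, 11 by DESeq2 and 0 to 14 with single libraries left out. For the block term the count of 16 became 5 to 18 with single libraries left out. Over all genes DESeq2 called 509 with the group alone, 1389 with the block and 2949 in the larger block, where the quasi-likelihood test called 0, 251 and 2247. The fit with the block called 0 of all genes with close pairs summed, 138 with the stricter filter (50 counts in 3 libraries) and 602 without a filter, where the group alone gave 23. Single libraries left out moved these counts to between 0 and 1149 for the group alone, 0 and 2267 with the block (the highest of both without untreated 3), 302 and 5386 in the larger block (highest without post-caerulein 1) and 788 and 3898 for the block term. The cause of these shifts was not tested.

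Gdf15, Plk3 and Rb1 kept a negative change under every alternative run in the 3 group comparisons. Signs turned for small changes. With the group alone Igfbp3 became 0.0345 with upper quartile scaling, 0.0169 with the stricter filter, 0.163 with close pairs summed and ranged from -0.79 to 0.222 with single libraries left out. Trp53 became 0.00969 with close pairs summed. With single libraries left out Trp53 ranged from -0.41 to 0.0178, Mdm2 from -1.04 to 0.0476 and Cdkn1a from -0.30 to 0.100, the highest being without untreated 1 for Trp53 and without untreated 3 for the others. With the block and close pairs summed Igfbp3 became 0.0262 and Trp53 0.000163, and Cdkn1a ranged from -0.17 to 0.0199 with single libraries left out. In the larger block Cdkn1a became -0.00234 without the filter and ranged from -0.0262 to 0.0641 with single libraries left out.

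The labels do not say whether the replicate numbers pair the samples. Deviations from the group means correlated at 0.372, 0.141 and -0.210 for numbers 1, 2 and 3. Untreated 3 correlated best with post-caerulein 4 (0.556), the other library of its block. As the deviations carry the block, they cannot show whether libraries with the same number share an origin. With the replicate number as a block 0 genes of the set were called, and Cdkn2a became 0.00226.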
